A study of Mus musculus with 3 samples.

Results

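The microRNA gene regions of this series are the listed regions of differential 5-hydroxymethylcytosine (5hmC) that the deposited tables assign to a microRNA gene. Members were every region in the whole-genome tables whose gene symbol starts with Mir and a digit, or with Mirlet7, each position counted once per symbol. The rule gave 661 pairs of region and symbol at 643 distinct positions, under 317 microRNA symbols. They were 3.27% of the 20227 pairs in the whole series, which held 19817 positions and 9293 symbols. Below, "region" means such a pair.

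Sv129 mouse embryonic stem cells (mESCs), a mouse cell line, were grown in medium with folate at 4 mg/L (normal folate, FA4) or 0 mg/L (folate-deficient, FA0), and 5hmC was mapped by hMeDIP-seq, in which fragments of genomic DNA are pulled down with a reagent against 5hmC and sequenced. The series holds 3 samples, an immunoprecipitated (IP) library of each condition and an FA0 input, and the input was not used here. With 1 IP library per condition no difference below has a replicate check, and every test compares 2 libraries, not 2 conditions. Both groups shared the cell line and the base medium with fetal bovine serum, and the label of embryonic stem cells was not checked, since the tables hold no expression values.

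5hmC is made from methylated cytosine by the TET dioxygenases, mostly at CpG dinucleotides, and is found at enhancers, gene bodies and promoters of embryonic stem cells. A microRNA is transcribed as a long primary transcript, often from an intron of a protein-coding host gene, and is cut to a hairpin and then to a short mature RNA whose seed (bases 2 to 8) pairs with target messages. For the 288 symbols with an annotated span of at most 200 bp, the start that the tables give is that of the hairpin. So "promoter" below is mostly a window around the hairpin and not the start of the primary transcript. For the other 29 symbols, the host transcript Mir22hg among them, the start need not be that of a hairpin. Without them 43 of the 46 FA0-higher promoter regions remained, and all 10 FA4-higher ones.

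Of 288 microRNA symbols with an annotated span of at most 200 bp, 11 had a listed region that reached the hairpin itself, 9 with more reads in FA0 and 2 with more in FA4. Mature or hairpin sequences from the RefSeq-based table (GRCm38.p6) matched 234 of the 317 symbols by name and position. The hairpins below are shown because a listed region covers the DNA of each, at least in part, and capitals mark the CpG dinucleotides where 5hmC can lie. The first 4 lay at regions higher in FA0 and the last 2 at regions higher in FA4.
Mir27b hairpin: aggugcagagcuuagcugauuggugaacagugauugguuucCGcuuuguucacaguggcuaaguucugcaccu
Mir24-1 hairpin: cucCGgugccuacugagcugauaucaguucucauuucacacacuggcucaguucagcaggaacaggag
Mir702 hairpin: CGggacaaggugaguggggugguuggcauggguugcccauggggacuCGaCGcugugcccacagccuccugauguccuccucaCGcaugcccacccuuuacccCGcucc
Mir6413 hairpin: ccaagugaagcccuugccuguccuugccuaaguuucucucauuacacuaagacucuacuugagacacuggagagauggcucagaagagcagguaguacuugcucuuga
Mir3064 hairpin: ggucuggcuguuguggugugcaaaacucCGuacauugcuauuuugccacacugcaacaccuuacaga
Mir6946 hairpin: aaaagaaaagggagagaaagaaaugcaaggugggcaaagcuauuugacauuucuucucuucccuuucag

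CpG number varied among them. Mir702 held 5, Mir27b, Mir24-1 and Mir3064 held 1 each, and Mir6413 and Mir6946 held 0. At least 1 CpG was in 6 of the 8 hairpins in the table that lay at FA0-higher regions and in 1 of the 2 at FA4-higher regions. The share among all 1005 hairpins of the table was 66.5%. Among the 234 matched by name and position to a symbol with a listed region it was 68.8%. So few hairpins at listed regions give no basis for a difference in CpG content.

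The mature sequences of the microRNAs that recur in the results are shown next, with the seed in capitals.
mmu-miR-27b-3p: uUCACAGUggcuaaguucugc
mmu-miR-24-3p: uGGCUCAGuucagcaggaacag
mmu-miR-6413: uGGCUCAGaagagcagguagu
mmu-miR-96-5p: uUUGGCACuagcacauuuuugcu
mmu-miR-182-5p: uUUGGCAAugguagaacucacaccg
mmu-miR-22-3p: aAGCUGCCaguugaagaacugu
mmu-miR-26a-5p: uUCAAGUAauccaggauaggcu
mmu-miR-29b-3p: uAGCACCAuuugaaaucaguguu
mmu-miR-34a-5p: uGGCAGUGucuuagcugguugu
mmu-miR-125b-5p: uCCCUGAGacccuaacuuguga
mmu-miR-6394: uCCCUGAGuggggccaggucu

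miR-24-3p and miR-6413 share 1 seed, and the hairpins of both lay at FA0-higher regions, on chromosomes 13 and 10. miR-125b-5p and miR-6394 share another. miR-125b-5p is made from both Mir125b-1 and Mir125b-2, and the 2 regions of Mir125b-1 were higher in FA0, while the 2 of Mir125b-2 and the 1 of Mir6394 were higher in FA4. The regions of Mir125b-1 lay at least 143559 bp from the gene and those of Mir125b-2 at least 25818 bp. miR-29b-3p is the product of both Mir29b-1 and Mir29b-2. A shared seed is a property of the mature RNA and says nothing about the DNA around the gene.

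Among the 661 regions, 395 were higher in FA4 and 266 in FA0. The share higher in FA0 was 40.2% (95% Clopper-Pearson interval 36.5 to 44.1), beside 39.0% of all listed regions, so microRNA regions as a whole lay near the background. The tables list only regions that the authors had already called, with at least a doubling between libraries, so no region near equality is among them. Of the 317 symbols, 128 had nothing but FA0-higher regions, 115 nothing but FA4-higher ones, and 74 carried regions of each direction. But 174 symbols had 1 region and could only run one way, and 143 had 2 or more. The same split over all symbols of the series was not computed, so these counts describe no trait of microRNAs.

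Reads were few. FA0-higher regions held 10 to 42 FA0 reads, median 17, and a median of 1 FA4 read, and 29.7% of them (interval 24.3 to 35.6) had 0 FA4 reads, beside 32.3% of all FA0-higher regions. FA4-higher regions held 13 to 58 FA4 reads, median 15, and 80.0% (75.7 to 83.8) had 0 FA0 reads, beside 80.8% of all FA4-higher regions. They were also longer, with a median of 1120 bp against 760 bp, as were FA4-higher regions in the whole series (1080 bp against 760 bp). Intervals of shares, here and below, treat each pair of region and symbol as an independent draw. Some pairs share a position, and regions of 1 symbol can be neighbours, so these intervals can be too narrow. Intervals of ratios cover the counting error of reads only.

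**Figure D1:**
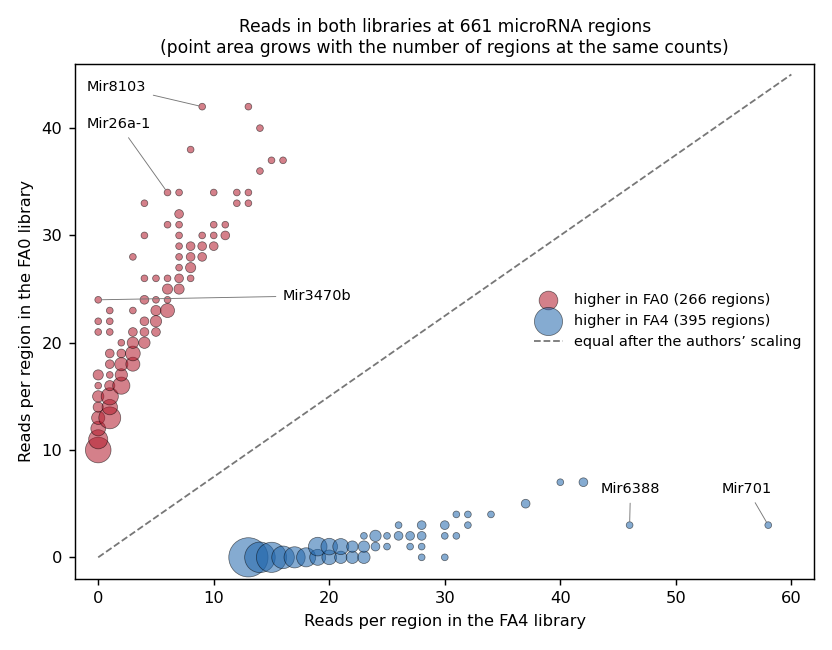
Reads per region in the FA4 library (horizontal) and the FA0 library (vertical) for all 661 microRNA regions, red for the 266 higher in FA0 and blue for the 395 higher in FA4. The dashed line marks equality after the authors' scaling. Both clouds lie far from the line, since the tables list called regions alone, and FA4-higher regions crowd at 0 FA0 reads.

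Each region was tested with an exact two-sided binomial test on its recovered whole reads, against the 57.1% of reads in FA4 that the authors' scaling implies, at an unadjusted threshold of 0.0001. It passed 190 of 266 FA0-higher regions (71.4%; 74.7% of all FA0-higher regions) and 107 of 395 FA4-higher regions (27.1%; 26.2% of all FA4-higher regions). Both shares were near the background. The scaling set the direction in which most regions passed. With unscaled reads 30 FA0-higher and 230 FA4-higher microRNA regions passed. A further 25% on FA0 gave 266 and 23, and a further 25% on FA4 gave 53 and 230. Over all listed regions these counts were 749 and 6913, 7893 and 909, and 1777 and 6913. FA0-higher regions were 11.5%, 92.0% and 18.7% of the passing microRNA regions, beside 9.78%, 89.7% and 20.4% of all passing regions.

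Direction went with distance from the gene start. Within 2 kb of the start, the class the tables call promoter, 46 regions had the higher count in FA0 and 10 in FA4, a share of 82.1% (69.6 to 91.1) beside 61.6% of all promoter regions. The promoter class also took a larger part of the microRNA regions, 8.47% against 5.28% of all listed regions. Upstream regions, 2 to 20 kb before the start, split into 54 and 50, or 51.9% higher in FA0 (41.9 to 61.8) beside 46.9%. Intergenic regions split into 153 and 314, or 32.8% (28.5 to 37.2) beside 30.8%. Intron regions split into 13 and 21, or 38.2% (22.2 to 56.4) beside 43.3%. The exon class held 429 of all listed regions and 0 microRNA regions. A region over a gene of at most 200 bp lies by its start and falls in the promoter class, so for such genes the 0 is set by the classes.

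Regions 2 to 20 kb downstream of the start were 65.6% higher in FA0 (52.3 to 77.3), beside 50.4% of all regions at that distance. Farther out the shares were lower. The share was 36.8% at 20 to 100 kb upstream (36.4% of all), 34.1% at 20 to 100 kb downstream (42.1%), 28.4% over 100 kb downstream (29.6%) and 17.3% over 100 kb upstream (20.8%). The median region lay 39881 bp from the gene it was assigned to, 100 lay within 2000 bp and 236 over 100000 bp away. For those distant regions the microRNA is the assigned gene and the tables show no other link to it.

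**Figure D2:**
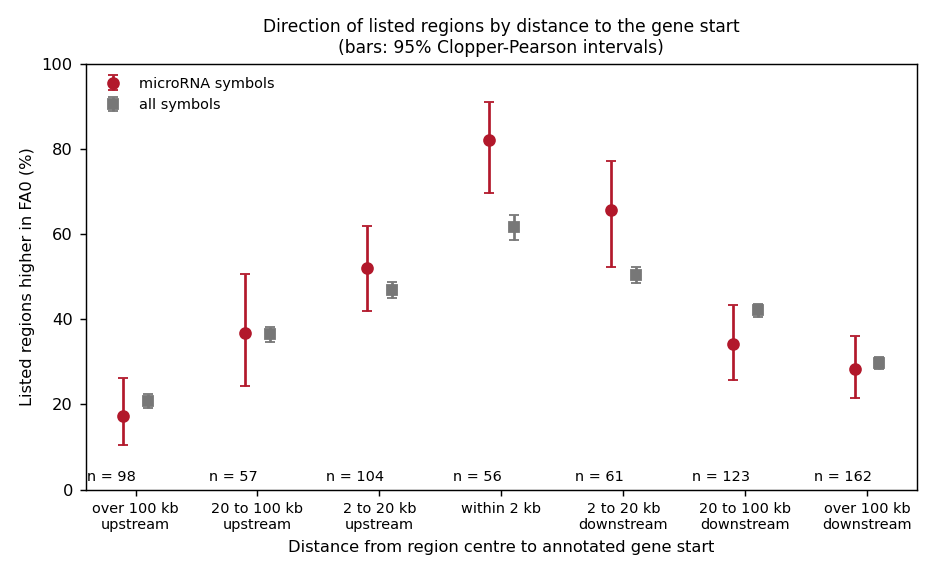
Percent of listed regions higher in FA0 by distance from the region centre to the annotated gene start, for microRNA symbols (red circles, n above the axis) and all symbols (grey squares), with 95% Clopper-Pearson intervals. The microRNA share peaked at 82.1% within 2 kb of the start and was 17.3% over 100 kb upstream.

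Direction also went with whether the region itself lay over a protein-coding gene, which need not be a host gene of the assigned microRNA. Regions over the span of a protein-coding gene were 61.8% higher in FA0 (144 and 89; 47.7% of all such regions), and those outside were 28.5% higher in FA0 (122 and 306; 31.7% of all). Within the promoter class the shares were close, 35 and 8 over coding genes (81.4%, 66.6 to 91.6) and 11 and 2 outside (84.6%, 54.6 to 98.1). Whether position of the region over a coding gene or distance to the hairpin goes with direction was not tested separately.

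At the 46 promoter regions higher in FA0, the FA0 library held 10 to 33 reads, median 15.5, and the FA4 library 0 to 11, median 1, with 0 FA4 reads at 14. At the 10 higher in FA4, the FA4 library held 15 to 21 reads, median 17.5, and the FA0 library 0 or 1, with 0 at 7. The exact test passed 35 of the 46 (78.4% of all FA0-higher promoter regions passed) and 3 of the 10 (23.9% of all FA4-higher ones). Unscaled reads gave 4 and 10, a further 25% on FA0 gave 46 and 0, and a further 25% on FA4 gave 12 and 10. Under unscaled reads, then, more FA4-higher than FA0-higher microRNA promoters passed.

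Among the named FA0-higher promoters, the region of Mir5104, at chr10:7837781-7838480 (mm10) over Zc3h12d, held 1 FA4 and 22 FA0 reads, a 29.3-fold higher normalised count in FA0 (4.74 to 1211; exact p = 1.09e-07). The interval is wide because the FA4 library held 1 read, and ratios of listed regions are raised by the choice of regions on the same counts. Mir7019, at chr4:138317801-138318500 over Pink1, the mitochondrial kinase, held 4 and 26 (exact p = 9.38e-07).

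Mir6910 and Mir7024 lay by genes of RNA metabolism. The region of Mir6910, at chr10:79863341-79864640, lay over Ptbp1, a splicing repressor, and Plppr3, and held 7 FA4 and 30 FA0 reads, 5.71-fold (2.46 to 15.4; exact p = 2.65e-06). That of Mir7024, at chr5:33900681-33901180 over Nelfa, a subunit of the negative elongation factor, held 0 and 14 reads, at least 6.22-fold against a floor of 3 reads (exact p = 7.05e-06). Mir96, at chr6:30167701-30168560 outside coding genes, held 1 and 17 (exact p = 5.95e-06).

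The 10 FA4-higher promoter regions lay under 9 symbols. The exact test passed Mir3064, at chr11:106783361-106785080 with 18 FA4 and 0 FA0 reads, Mir7060, at chr7:127489981-127490480 with 18 and 0, and Mir762, at chr7:127709601-127710400 with 17 and 0. Exact p was 4.81e-05 for the first pair and 8.70e-05 for Mir762, and the folds were at least 4.50, 4.50 and 4.25. The others did not pass the test. Mir5119 over Cdk12, a kinase of transcription elongation, held 16 and 0, and Mir28a held 15 and 0, with exact p of 0.000158 and 0.00029.

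**Figure D3:**
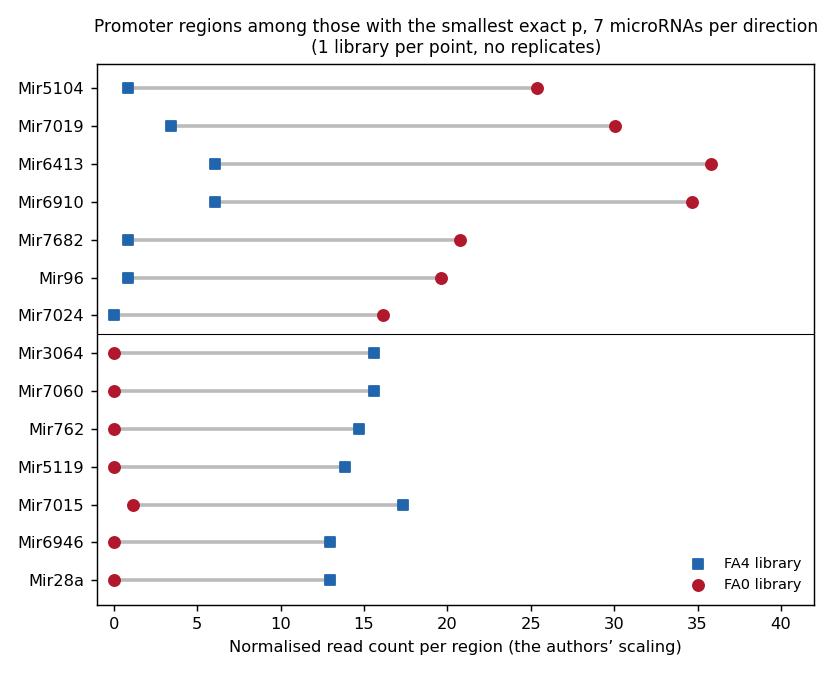
Normalised read count per region, on the authors' scaling, in the FA4 library (blue squares) and the FA0 library (red circles) for 7 promoter regions per direction among those with the smallest exact p. FA0 values of the upper group run from 16.2 at Mir7024 to 35.8 at Mir6413, and FA4 values of the lower group run from 13.0 to 17.3.

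One position was assigned to 4 microRNAs, the only one shared by 3 or more. It was chr13:63300641-63301260, within the span of Aopep, an aminopeptidase gene that hosts the Mir23b, Mir27b, Mir3074-1 and Mir24-1 cluster. It held 0 FA4 reads and 13 FA0 reads, at least 5.78-fold higher in FA0 (exact p = 1.65e-05). It covered the Mir27b hairpin at chr13:63300712-63300784 whole, and the first part of the Mir24-1 hairpin at chr13:63301208-63301275. Mir3074-1 lies over Mir24-1 on the opposite strand, and the Mir23b gene lay 84 bp outside the region. These 4 pairs are 1 measurement, since they share the same reads. With positions counted once, promoter regions higher in FA0 numbered 41 and those higher in FA4 numbered 10.

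The other FA0-higher regions that held a hairpin were apart from each other in the genome. Mir7682, at chr1:151441681-151442640 over Trmt1l, a tRNA methyltransferase-like gene, held 1 FA4 and 18 FA0 reads (exact p = 2.69e-06). Mir6413, at chr10:20296821-20298860 outside coding genes, held 7 and 31 (exact p = 1.42e-06). Mir702, at chr5:136990841-136991900 over Plod3, a lysyl hydroxylase of collagen, held 8 and 28, 4.67-fold (2.07 to 11.8; exact p = 2.74e-05). Mir6988, over Syvn1, a ubiquitin ligase of the endoplasmic reticulum, held 11 and 31 and was named after its values were seen. Of the 9 symbols, with the shared position counted under each of its symbols, all passed the exact test, beside 74.7% of all FA0-higher regions. The FA4 library held at least 1 read at 6 of the 9.

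The 2 FA4-higher regions over a hairpin did not pass, where 26.2% of all FA4-higher regions did. Mir3064, at chr11:106781461-106783060 over Ddx5, an RNA helicase that works with the microRNA processing enzyme Drosha, held 15 FA4 and 0 FA0 reads (exact p = 0.00029). Mir6946, at chr14:20690001-20690720 over Sec24c, a subunit of the COPII vesicle coat, held the same 15 and 0. For Mir3064 the promoter region with 18 and 0 reads above lay beside it, so 2 separate regions at Ddx5 ran the same way.

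At Mir7060 and Mir7015 neighbouring promoter regions ran opposite ways. Mir7060 lies in Fbrs, where the region over the hairpin, chr7:127489221-127490000, held 3 FA4 and 20 FA0 reads (exact p = 1.87e-05). It overlapped by 20 bp the FA4-higher region with 18 and 0 reads given above. Mir7015 lies in Smap2, a regulator of ARF GTPases, where chr4:120972821-120973760 over the hairpin held 1 and 15 reads (exact p = 2.89e-05) and chr4:120971961-120972540, 280 bp away, held 20 and 1 (exact p = 0.000198). At both, the FA0-higher region held the hairpin. Over all microRNA regions there were 4 such opposite neighbours within 1000 bp, and the other two were at Mir6395 and Mir28c.

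**Figure D4:**
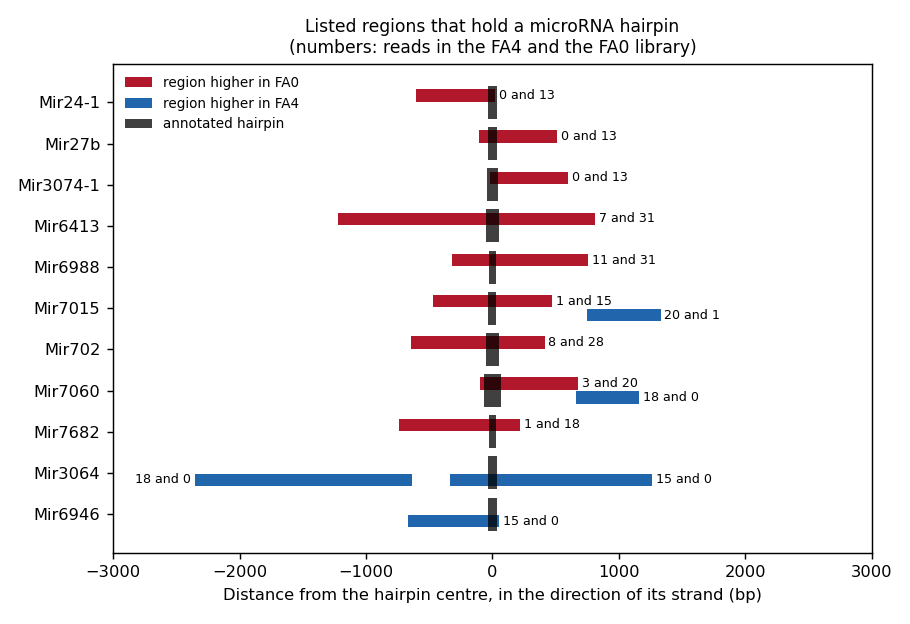
Extent of listed regions around the 11 hairpins that a region reached, in bp from the hairpin centre along its strand, red for regions higher in FA0, blue for those higher in FA4 and black for the hairpin, with reads in the FA4 and the FA0 library beside each region. The regions of Mir24-1, Mir27b and Mir3074-1 are 1 position, and Mir7015 and Mir7060 have a region of each direction.

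Wide annotated spans need separate reading. In all, 47 regions overlapped the annotated gene, 24 higher in FA0 and 23 in FA4 (51.1%; 46.5% of all regions over their assigned gene). Of these, 36 belonged to symbols with a span over 200 bp, the largest being 760340 bp. Apart from the host transcript Mir22hg, of 5152 bp, such spans look like copies merged into 1 gene, which was not checked. A region over a wide span need not touch a hairpin, and every one of the 34 intron regions came from 13 symbols with spans of at least 80540 bp. Setting them apart at 200 bp was chosen after the values were seen. Mir3470b, over Shank2, a scaffold of the postsynapse, had 3 FA0-higher and 2 FA4-higher regions. The region of Mir3470b at chr7:144357521-144359060 held 0 FA4 and 24 FA0 reads (exact p = 1.47e-09), and another at chr7:144374181-144374860 held 20 and 0 (exact p = 1.50e-05).

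Other wide symbols showed both directions too. Mir5098, annotated on chromosomes 8 and 17, had 6 FA0-higher and 2 FA4-higher regions, and that at chr8:107399281-107400540 over Nqo1, a quinone reductase, held 8 FA4 and 38 FA0 reads (exact p = 4.04e-08). Mir3098 held 1 and 19 at chr2:131157421-131158140 (exact p = 1.21e-06). Mir669e had 5 FA4-higher regions alone, led by chr8:40090601-40092760 with 20 and 0 (exact p = 1.50e-05), and the 7 regions of Mir6380 were likewise higher in FA4. Mir1191 over Clock, the circadian transcription factor, held 16 and 0 and Mir1954 over Fmn1 held 15 and 0, and neither passed.

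Over all classes, the smallest exact p belonged to Mir701, 38284 bp from its hairpin at chr5:110961601-110965860 over Ttc28. It held 58 FA4 and 3 FA0 reads, 14.5-fold higher in FA4 (4.72 to 72.4; exact p = 3.38e-11). Another region of Mir701, at chr5:111033621-111034840, held 3 and 28 (exact p = 7.43e-08), so the surroundings of this gene carried strong differences of both signs. Among FA0-higher regions Mir3470b came first. Mir3087, at chr2:25436421-25436980 over Abca2, a lipid transporter gene, held 0 and 22 (exact p = 8.03e-09). Mir8103, over Osbpl7, held 9 and 42 (exact p = 1.20e-08), and Mir6897 held 0 and 21 (exact p = 1.87e-08).

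Regions were unevenly spread over symbols. While 174 symbols had 1 region, 28 had 5 or more, led by Mir28c with 27 and Mir6388 with 25, then Mir28a and Mir5098 with 8 each and Mir6343 and Mir6380 with 7 each. Mir28c regions, on chromosome 8, were higher in FA4 at 24 of 27, and 11 passed the exact test. They held 0 to 27 FA4 and 0 to 18 FA0 reads, and the nearest lay 14168 bp from the gene. Without Mir28c and Mir6388 263 microRNA regions (43.2%) had the higher count in FA0 and 346 had it in FA4.

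All 25 regions of Mir6388 were higher in FA4, with 13 to 46 FA4 and 0 to 5 FA0 reads, and 16 passed the exact test. The strongest, chr12:115814881-115818540, held 46 and 3 reads, 11.5-fold (3.70 to 57.8; exact p = 1.53e-08), and chr12:115803961-115805920 held 30 and 0 (exact p = 5.86e-08). They lay among the immunoglobulin heavy chain variable (Ighv) segments, which B cells rearrange to make antibodies. Between the first and the last of 183 annotated Ighv segments lay 36 microRNA regions, under Mir6388, Mir7094-1 and Mir7094-2, of which 35 were higher in FA4 and 21 passed. They held 2 to 46 FA4 reads, median 18, and 26 had 0 FA0 reads.

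The tables gave nearly all listed regions of that stretch a microRNA symbol, 36 of 39 pairs, of which 37 were higher in FA4. The median of the 36 lay 4801 bp from the nearest Ighv segment, and 2 overlapped one. Mir7094-1 at chr12:114121101-114122940 held 28 and 0 (exact p = 1.92e-07). The 32 microRNA regions elsewhere on chromosome 12 were 40.6% higher in FA0, beside 43.6% of all other listed regions there, so the low FA0 share of the 68 microRNA regions on this chromosome, 20.6% against 41.7% of all, lay in the Ighv stretch. Without the stretch 42.4% of the other 625 microRNA regions were higher in FA0. Chromosomes 1 and 8 gave 28.9% and 25.7% (27.5% and 32.5% of all), and the remaining chromosomes 47.6% (41.0% of all).

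**Figure D5:**
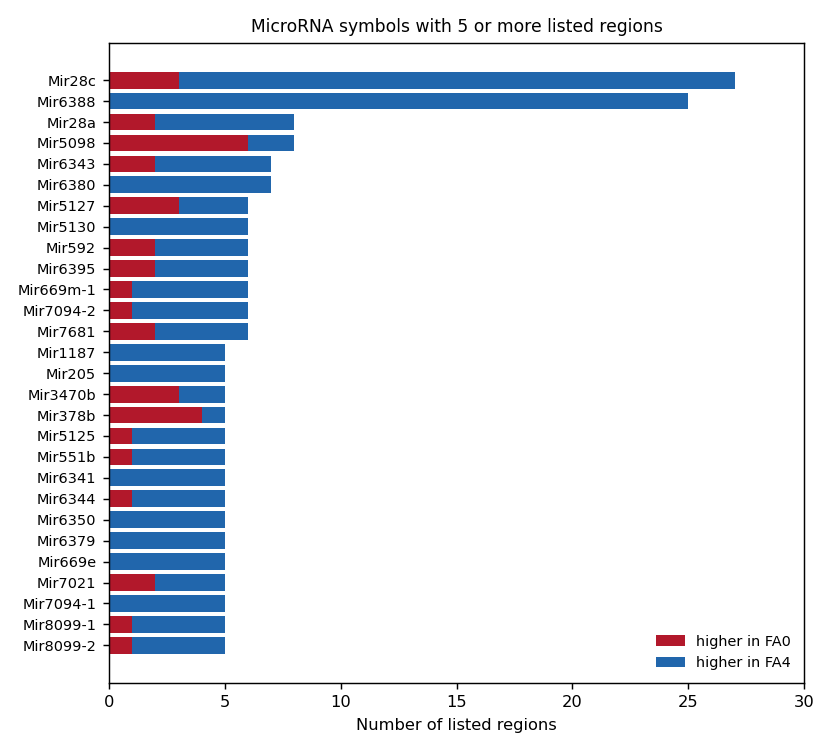
Number of listed regions for the 28 microRNA symbols with 5 or more, red for regions higher in FA0 and blue for those higher in FA4. Mir28c (27) and Mir6388 (25) stand far above the rest, and Mir6388 has FA4-higher regions alone.

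MicroRNAs with known roles were read from 14 lists, chosen with earlier results of these data known. Of their symbols 50 had 97 regions in all, 38 higher in FA0 and 59 in FA4. Over all listed regions 39.0% were higher in FA0, and the exact test passed 74.7% of FA0-higher and 26.2% of FA4-higher ones. Beside the counts of symbols per list, 234 of the 1005 hairpins in the sequence table matched a symbol with a listed region by name and position. The list counts also take symbols without such a match, from the 317 with a region, so the 234 are too low a background for them. For a list's median, 0.5 was added to both normalised counts. On that scale the median log2 ratio of FA0 over FA4 was -3.80 over all listed regions and -3.50 over all microRNA regions. In regions drawn from 2 separate clouds a median shows which cloud holds the larger part.

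One list held microRNAs described to target the DNA methylation and demethylation machinery. Of its 15 annotated symbols 6 had a region, and 7 regions had more FA0 and 2 more FA4 reads, beside 39.0% of all listed regions higher in FA0. The exact test passed 6 and 1 of them (74.7% and 26.2% over all listed regions), and the median log2 ratio was 3.25. Mir26a-1, whose family represses Ezh2 and TET messages, held 6 FA4 and 34 FA0 reads at chr9:119004721-119006340, 25456 bp from the gene, 7.56-fold (3.14 to 22.0; exact p = 5.30e-08). Mir22, described in mouse to repress TET messages, held 2 and 18 at chr11:75444361-75444960 (exact p = 2.97e-05) and 0 and 11 at its promoter, chr11:75462561-75463020 (exact p = 8.96e-05). The same 2 positions are listed under the host transcript Mir22hg, so the list's 7 FA0-higher pairs come from 5 positions.

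The miR-29 genes, whose product represses Dnmt3a and Dnmt3b, did not run one way. Mir29b-2 held 0 FA4 and 15 FA0 reads at chr1:195027641-195028120 (exact p = 3.02e-06), while a region farther upstream, chr1:195019801-195022200, held 40 and 7 (exact p = 8.16e-05). Mir29b-1 held 0 and 10, 23528 bp from the gene. Mir148a, described in human cells to repress DNA methyltransferase messages, held 14 and 0, 233592 bp from the gene. Neither passed.

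Among microRNAs of the embryonic stem cell state, few regions were listed, and whether fewer than over all microRNAs was not tested. The Mir290 to Mir295 and Mir302/367 clusters, the most typical of mESCs and primed cells, had 1 region over 14 annotated symbols, upstream of Mir290a, with 13 FA4 and 0 FA0 reads, and it did not pass (exact p = 0.000994). The Mir17 cluster and its paralogs had 2, both under Mir92-1, 1 of 16 symbols, with 13 and 0 reads. The let-7 family, which rises on differentiation, had 2 of the opposite sign, under Mirlet7i, 1 of 12 symbols. They held 6 and 23 reads at chr10:122913921-122915500 (exact p = 9.18e-05) and 1 and 13, 70140 and 44220 bp from the gene. Mir34a, induced by p53 and 1 of 3 symbols of its list, held 0 and 12 at chr4:150062581-150063020, 5434 bp from the gene (exact p = 3.84e-05).

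Neural microRNAs had 10 regions higher in FA4 and 3 in FA0 under 8 of 29 symbols, where 39.0% of all listed regions were higher in FA0, a median log2 ratio of -4.56 and 2 passing in each direction. Of the 10, 4 were regions of Mir7j. Regions assigned to copies of 1 microRNA differed, but they lay far from the genes. The nearest was 143559 bp away for Mir125b-1, 25818 bp for Mir125b-2, 9794 bp for Mir124a-3 and 49051 bp for Mir124a-2. Mir125b-1 held 1 FA4 and 14 FA0 reads at chr9:41725561-41726060 (exact p = 6.35e-05), and Mir125b-2 held 18 and 0 at chr16:77672161-77673040 (exact p = 4.81e-05). Mir124a-3, a copy of the main neuronal microRNA, held 1 and 15 (exact p = 2.89e-05), and Mir124a-2 held 14 and 0 (exact p = 0.000534). Mir138-1 held 17 and 0, 21087 bp from the gene (exact p = 8.70e-05).

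Around the Mir96 and Mir182 genes, part of a cluster active in sensory cells of the ear and retina, 4 regions were listed, 3 higher in FA0 and 1 in FA4. From low to high coordinate on chromosome 6, chr6:30136101-30136880 held 3 FA4 and 18 FA0 reads, chr6:30159101-30159560 held 19 and 0, chr6:30162501-30163340 held 1 and 13, and the Mir96 promoter held 1 and 17. The region with 1 and 13 did not pass and the other 3 did. Mir205, an epithelial microRNA, had 5 regions, all higher in FA4, led by chr1:193668201-193669140 with 21 and 0 (exact p = 1.54e-05). The nearest of the 5 lay 75171 bp from the gene. The epithelial list as a whole had 3 FA0-higher and 6 FA4-higher regions under 3 of 10 symbols, beside 39.0% of all listed regions higher in FA0. Of these 2 and 3 passed, and the list's median was -4.66.

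The families of the Sfmbt2 cluster and its repeats (Mir297, Mir466, Mir467 and Mir669), which lie in introns and repeats of rodents, had 46 regions under 21 of 81 symbols. Of these 14 were higher in FA0 and 32 in FA4, beside 39.0% of all listed regions higher in FA0. The exact test passed 7 and 5 (74.7% and 26.2% over all listed regions), and the median was -4.56. Mir466o held 1 and 16 reads (exact p = 1.31e-05), Mir466p held 6 and 25 (exact p = 2.78e-05) and Mir467f held 30 and 3 (exact p = 3.03e-05). Members of these families resemble each other, so reads could be placed at the wrong copy, and how reads with several placements were treated is not stated in the study's methods or labels.

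The remaining lists were small. The list of the imprinted Dlk1-Dio3 cluster, whose microRNAs are active from the maternal chromosome, had 3 regions, under 3 of 59 annotated symbols. On chromosome 12 lay 2 of them, both higher in FA0. Mir3072 held 3 FA4 and 19 FA0 reads, 170541 bp from the gene (exact p = 3.73e-05). Mir337 held 16 and 37 and did not pass (exact p = 0.000126). Its last, Mir496b with 13 and 0, lies on chromosome 19 and so outside the cluster. In the muscle list 1 of 11 symbols had a region. Mir133c, from a family of muscle, held 3 and 20 reads (exact p = 1.87e-05), 0 and 11, and 26 and 2 (exact p = 6.10e-05) at 3 regions. Blood and endothelial microRNAs had 3 regions in each direction, under 3 of 18 symbols, and a median of -0.36. Those higher in FA0 were Mir181a-1 and Mir222 with 0 and 12 each (exact p = 3.84e-05), 184515 and 271210 bp from the gene, and Mir451b with 4 and 21 (exact p = 4.56e-05). Those higher in FA4 were further regions of Mir181a-1. Mir465, 1 of 19 symbols of the X-linked group, had 1 region each way, the nearer 155256 bp from the gene. The Hox cluster list, of 6 annotated symbols, and the liver and pancreas list, of 3, had 0 regions. Lists this small could hold 0 regions without being unusual, which was not tested.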

How the data were processed

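Sv129 mESC libraries (1 IP library per condition) were analysed from 2 whole-genome tables of regions. Per the submitters' processing notes, reads passed through Bowtie2 2.2.4 and cutadapt 1.9.1 with the build mm10, and the region caller is not given in the sources used here. Labels and methods differ on the immunoprecipitation kit and fragment size. The authors deposited, per region, a normalized signal, which is reads times 1 factor per library (0.866 for FA4, 1.15 for FA0, ratio 1.33), and all values divided to within 0.00576 of a whole read. Library totals are not given in these tables, so depth per library is unknown. The authors' own fold, p and FDR columns were not used, nor were 12 other per-sample columns (averages and the 2 promoter tables).

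Tests were exact binomial at 0.0001, with Clopper-Pearson intervals at 95% (exact conditional for ratios). A ratio against 0 reads used a floor of 3 reads and is no confidence limit. P-values were not adjusted, since they are computed on regions chosen for the same difference. Calculations were tested on simulated data. Named were the 12 microRNAs per direction with the smallest exact p over their gene, 8 promoters and 5 regions per direction, the 5 symbols with most regions (ties kept), up to 4 per list, and positions under 3 or more symbols; a few named by this rule are left out here. The members and lists were chosen with earlier results of these data known. The software was scipy 1.17.1, pandas 2.3.3, numpy 2.4.6 and, for plots, matplotlib 3.10.9, under Python 3.11.15. Alternatives changed the unit, scaling, threshold, test, read minimum, host genes, repeats, chromosomes and overlap. Those on Mir6388 and Mir28c, spans over 200 bp and 20000 bp from the start were chosen after seeing the data.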

Additional observations from a re-analysis of the deposited data

How the results depend on the processing

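No single region changed direction under the scalings run, but every listed region differs by at least a doubling, so this says little of stability, and the direction with the larger count did turn in several settings. No paired analysis was possible because each condition has 1 library. Counts below are higher in FA0, then in FA4. The counts by direction, 266 and 395, became 49 and 18 at a threshold of 1e-05, 123 and 104 with at least 20 reads, 140 and 81 within 20000 bp of the start, and 202 and 189 when symbols were counted. The counts passing the exact test, 190 and 107, became 30 and 230 with unscaled reads, 53 and 230 with FA4 scaled up by 25%, 49 and 18 at 1e-05, 117 and 60 with at least 20 reads, and 106 and 23 within 20000 bp. They became 266 and 23 with FA0 scaled up by 25%, 152 and 67 as symbols, 266 and 395 under a G-test, and FA4-higher ones 69 without chromosomes 8 and 1. Promoter counts, 46 and 10, became 8 and 0 at 1e-05 and 20 and 3 with at least 20 reads. Regions over the gene, 24 and 23, became 7 and 2 with the whole hairpin inside and 9 and 2 without spans over 200 bp, and FA0-higher ones numbered 48 within 1000 bp. Scaling and threshold move these counts by construction, and few reads per region limit each value. The turns with scaling were shared by all listed regions, with 749 and 6913 passing on unscaled reads. Near the start all listed regions also had higher FA0 shares (61.6% within 2 kb, 46.9% and 50.4% at 2 to 20 kb upstream and downstream) than the 39.0% of the series. For the 1e-05 threshold and the minimum of 20 reads, counts over all listed regions are not given here. The G-test at 0.0001 passed every listed microRNA region, so it separated none of them and is no check.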
